A study of Mus musculus with 4 samples.

Results

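The 8 genes through which a B cell signals its activation or exchanges help with T cells followed here were Cd83, Cd86, Cd80, Cd40, Icosl, Fcer2a, Tnfrsf13b and Tnfrsf13c. They are 8 of the 32285 genes in the count tables and were taken by name, with earlier results of these data known. A B cell that meets antigen presents it on MHC class II and shows costimulatory ligands to T cells. CD80 and CD86 are the B7 ligands of CD28 and CTLA-4, and ICOSL is the ligand of ICOS. CD40 is the receptor through which the CD40 ligand of helper T cells signals back to the B cell. CD83 is an activation marker of B cells and mature dendritic cells that keeps MHC class II and CD86 at the cell surface by opposing their ubiquitination by MARCH1. Fcer2a encodes CD23, the low-affinity IgE receptor of resting follicular B cells, Tnfrsf13b encodes TACI and Tnfrsf13c encodes the BAFF receptor, on which the survival of mature B cells depends.

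Single cells of draining lymph nodes were measured in 4 droplet 3′ RNA libraries, 2 named Control and 2 named EV, each described by the study as a separate biological replicate. All mice were wildtype C57BL/6, and the EV mice had received a total of 100 µg of extracellular vesicles (EVs), small membrane vesicles released by induced pluripotent stem cells, under the skin. The sample labels give Control as untreated and a duration of 24 h for all samples, whereas the study's methods give PBS injections for Control and a harvest after 5 days. The age of the mice and the number of mice behind each library are not stated in the sources used here.

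The libraries held 50749656 to 70418672 unique molecular identifiers (UMIs, counted RNA molecules) in 8297 to 9000 cell barcodes, of which 7891 to 8529 per library passed the filters on cells, 32725 in all. Pairs of libraries shared 12 to 26 barcodes. B cells were the 14119 cells with a Cd79a UMI and no Cd3d, Cd3e or Cd3g UMI, and 13632 of them also held a UMI of Ighd, the IgD heavy chain of naive B cells. The other 487 B cells are called Ighd-negative. The 376 cells with an Fscn1 UMI and no Cd3e UMI are called dendritic cells, the 280 cells with at least 2 C1qa and C1qb UMIs and no Cd3e UMI macrophages, and the 14180 cells with a Cd3e UMI and no Cd79a UMI T cells. These gates overlap, and 70 cells were both B and dendritic cells, 51 both B cells and macrophages, and 25 both dendritic cells and macrophages.

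The labels of the classes were checked against other markers. Among dendritic cells, 37.5% to 55.2% per library held Ccr7, 29.8% to 37.9% Ccl22 and 65.3% to 75.9% Relb, genes of migratory dendritic cells. Xcr1 and Clec9a of the resident subset were found in at most 1.15% and 2.78%. The full list of 6 resident markers summed to 640 to 707 UMIs per 1000000 in dendritic cells, against 12.4 to 26.8 in B cells. The 9 migratory markers summed to 7446 to 8234 in dendritic cells. The gate was thus not shown to hold migratory cells only. Among macrophages, 92.9% to 96.7% held Lyz2 and 94.0% to 100% Apoe, but their median depth was only 1100 to 1456 UMIs. B cell RNA was present in both gates, with Cd79a in 13.8% to 23.6% of the dendritic cells and 11.9% to 23.9% of the macrophages. B cells made up 35.4% and 30.5% of the kept cells in Control against 57.2% and 48.8% in EV, and their median depth was 4123 and 4880 UMIs in Control against 5795 and 5602 in EV. Levels below are CPM, the counts of a gene in a class and library per 1000000 UMIs of that class, with TMM scaling within that class (marker sums are CPM without that scaling), so levels of 2 classes are set side by side only as a description.

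On mouse GRCm38 (mm10), Cd83 lies at chr13:43784775-43803132 on the plus strand, Cd86 at chr16:36603869-36666081 on the minus strand and Cd80 at chr16:38455561-38496335 on the plus strand. Cd40 lies at chr2:165055627-165072948 and Icosl at chr10:78069302-78083913, both on the plus strand. Fcer2a lies at chr8:3681737-3694175 on the minus strand, Tnfrsf13b at chr11:61126755-61149372 on the plus strand and Tnfrsf13c at chr15:82221743-82224369 on the minus strand. All are protein-coding, and only Tnfrsf13b overlaps another annotated gene, the processed pseudogene Gm12269 on the opposite strand. The 250 bases before the start of the 3 receptor genes with a RefSeq promoter entry (GRCm38.p6) at their annotated 5′ end are shown, since all of these receptors were at least several-fold lower in T cells than in B cells. Capitals mark matches of any of 5 motifs on either strand, which were GGGNNNNNCC for NF-kB, TTCNNNNGAA for STAT6, GAGGAA for PU.1 and other ETS factors, CAGGTG for E2A and ATTTGCAT for octamer factors.
Fcer2a (CD23), chr8:3694175-3694424, minus strand: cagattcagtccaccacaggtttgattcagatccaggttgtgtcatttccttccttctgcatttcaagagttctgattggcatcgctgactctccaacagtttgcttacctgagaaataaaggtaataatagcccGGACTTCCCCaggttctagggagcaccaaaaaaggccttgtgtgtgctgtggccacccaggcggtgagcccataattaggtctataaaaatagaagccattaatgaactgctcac
Tnfrsf13b (TACI), chr11:61126505-61126754, plus strand: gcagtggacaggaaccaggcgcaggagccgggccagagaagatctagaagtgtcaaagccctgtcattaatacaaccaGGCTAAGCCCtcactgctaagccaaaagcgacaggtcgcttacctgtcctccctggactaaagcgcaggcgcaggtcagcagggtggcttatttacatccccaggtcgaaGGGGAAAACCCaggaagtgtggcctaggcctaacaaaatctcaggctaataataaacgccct
Tnfrsf13c (BAFF receptor), chr15:82224381-82224630, minus strand: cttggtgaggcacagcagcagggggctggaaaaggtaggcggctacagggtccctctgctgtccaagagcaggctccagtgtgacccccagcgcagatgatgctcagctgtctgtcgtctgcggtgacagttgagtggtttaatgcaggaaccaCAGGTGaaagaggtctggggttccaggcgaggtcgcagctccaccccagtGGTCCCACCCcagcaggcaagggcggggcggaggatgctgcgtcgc
The NF-kB pattern was matched in all 3 windows, at positions -115 to -106 from the start site of Fcer2a, at -172 to -163 and at overlapping matches between -62 and -52 of Tnfrsf13b, and at -46 to -37 of Tnfrsf13c. The E2A pattern was matched once, at -96 to -91 of Tnfrsf13c. The STAT6, ETS and octamer patterns had no match in these windows. Over 32851 windows of this length, 45.8% held the NF-kB pattern, 17.2% the E2A pattern, 23.3% the ETS pattern, 5.85% the STAT6 pattern and 1.60% the octamer. A match of the first is thus common. Entries for Cd80 and Icosl began inside the annotated gene and are not printed. Cd83, Cd86 and Cd40 had no entry.

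Cd83 was the gene of the set that was called in the main fit of B cells. In B cells its level was 308 and 278 CPM in Control 1 and Control 2 and 627 and 724 CPM in EV 1 and EV 2, resting on 3592 to 18331 UMIs per library. Both EV libraries exceeded both Controls, and the group means were 293 ± 20.8 and 675 ± 68.8 CPM (SD, n = 2 each). The difference was 2.30-fold, a log2 fold change of 1.20 with a standard error of 0.12 and an edgeR adjusted p of 0.0051 over all genes tested. Cd83 was the only 1 of the 8 genes called in B cells, at an adjusted p under 0.05, beside 1.58% of the 13127 genes tested. At an unadjusted p under 0.05 in edgeR, 5 of the 8 passed (Cd83, Cd86, Icosl, Fcer2a and Tnfrsf13b), beside 2365 of 13127 genes. With 2 libraries a group, a gene without a call was not shown to be unchanged. Cd83 was called under all 14 settings, the main fit included, with log2 fold changes from 1.09 to 1.31. Among them were removal of the 1.58% to 3.76% of cells over a doublet threshold and each library left out in turn. The 60% ribosomal limit was no separate check in B cells, since its fit was that of the main setting (207 of 13127 genes called).

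**Figure D1:**
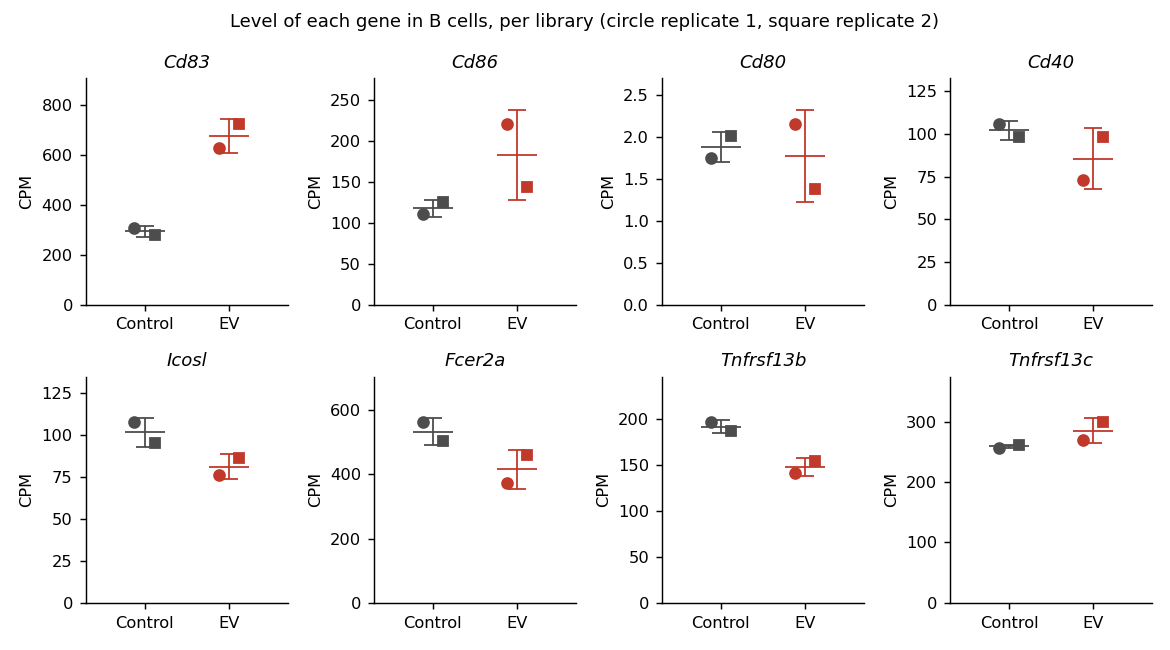
Level of the 8 genes in B cells, in CPM on linear axes that start at 0. Points are libraries, and bars give the mean and SD of 2 libraries. Cd83 shows the widest gap between the groups, from 308 CPM in the higher Control to 627 CPM in the lower EV library, and Cd80 is the only gene with overlapping groups.

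The difference in Cd83 was spread over the B cells. The median B cell held 1 Cd83 UMI in each Control library and 3 in each EV library. The share of B cells with a Cd83 UMI was 59.4% and 60.6% in Control and 81.6% and 84.6% in EV, a difference of 23.1 percentage points. At least 5 UMIs were held by 6.43% and 7.52% of the Control B cells and by 32.7% and 37.0% of the EV B cells. Since EV B cells had a higher median of UMIs per cell, each cell was also thinned at random to 1000 UMIs, which kept 2398 to 4663 B cells per library. The shares with a Cd83 UMI were then 23.5% and 23.2% in Control and 40.4% and 44.2% in EV, still 19.0 points apart with no overlap. An exact two-sided permutation test of 2 against 2 libraries cannot give a p under 0.33, and this p was 0.33. In T cells, which served as the background for free RNA, 2.30% and 2.35% of the Control and 3.47% and 4.22% of the EV cells held a Cd83 UMI, at median depths of 6546 to 8804 UMIs.

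**Figure D2:**
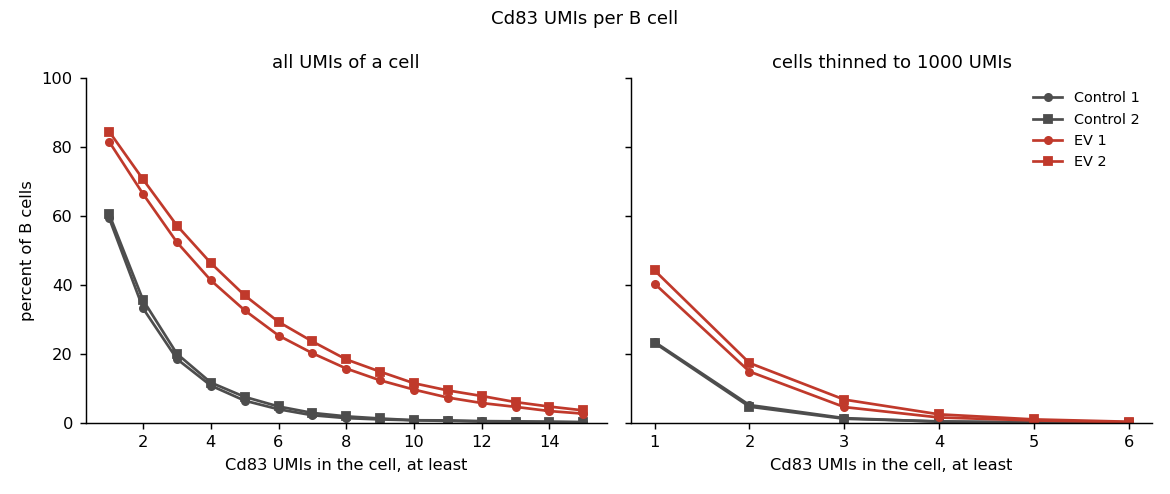
Percent of B cells (y axis) that held at least a given number of Cd83 UMIs (x axis), with 1 line per library, for all UMIs of a cell and after thinning each cell to 1000 UMIs. Both EV lines lie above both Control lines at low counts in both panels, and 9.63% and 11.5% of the EV B cells held 10 or more UMIs against 0.730% and 0.748% of the Control B cells.

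Other measures moved with the groups in B cells beside Cd83. Of 20 tested genes of the dissociation and heat shock early response, edgeR called 4 higher and none lower, beside the 1.58% of all genes called. At an unadjusted p under 0.05, 11 of them passed, beside 2365 of 13127 genes. The list median log2 fold change was 0.20 beside -0.0023 over all genes. DESeq2 called 8, of which 7 were higher and Fosb was lower (-0.79). The 4 called by edgeR were the chaperone genes Hsph1 (18.4 and 22.5 CPM in Control, 48.0 and 56.3 in EV, log2 fold change 1.35, SE 0.13, adjusted p 0.0051), Hspa8 (1.24), Dnaja1 (0.99) and Hsp90aa1 (0.64), of which Hsp90aa1 was not called without Control 1 or without Control 2, and the immediate early genes Fos and Jun were not called. The summed UMIs of 9 migratory dendritic cell markers in B cells were 442 and 386 CPM in Control against 491 and 517 CPM in EV, and those of 7 B cell markers overlapped between the groups (12336 to 13906 CPM). The part of these measures in the Cd83 result was not tested.

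The B7 ligands differed in how they were detected. Cd86 stood at 110 and 125 CPM in Control against 221 and 143 CPM in EV. The EV libraries lay above both Controls but apart from each other, and the log2 fold change of 0.63 (SE 0.18) had an adjusted p of 0.13. Cd86 was called in only 4 of 14 settings. In edgeR these were a replicate block (0.60, adjusted p 0.022) and the fit without the filter on low counts (0.68, adjusted p 9.5e-06). The block called 750 of 13127 genes and the fit without that filter 1101 of 21418, against 207 of 13127 in the main fit. The other calls came from the fits without EV 1 (0.29) and without EV 2 (0.91). Each of these fits held 1 EV library, so the spread between the EV libraries did not enter it. A Cd86 UMI was found in 29.9% and 34.5% of the Control and 49.1% and 40.1% of the EV B cells, and after thinning in 9.47% and 10.9% against 16.7% and 11.9%. Cd80, the ligand usually induced on activated and memory B cells, was near the detection limit at 1.76 and 2.01 CPM in Control against 2.16 and 1.38 CPM in EV. These levels rest on 23 to 63 UMIs per library and overlapped, and 0.697% to 0.942% of B cells held a Cd80 UMI, no more than the 0.643% to 0.951% of T cells.

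Cd40 and Icosl, the receptor and the ligand that face CD40L and ICOS on helper T cells, were not called. Cd40 was at 106 and 98.3 CPM in Control against 72.7 and 98.1 CPM in EV, so that Control 2 and EV 2 were nearly equal. Its log2 fold change was -0.26 (SE 0.13, adjusted p 0.35). Icosl was at 108 and 95.3 CPM in Control against 76.2 and 86.3 CPM in EV, with both EV libraries below both Controls and a log2 fold change of -0.32 (SE 0.10, adjusted p 0.15). The share of B cells with a UMI overlapped between the groups for both genes at full depth. At 1000 UMIs per cell both were lower in EV, with Cd40 in 10.4% and 9.30% against 6.07% and 8.85% of B cells and Icosl in 10.8% and 8.88% against 7.42% and 8.23%.

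Of the 3 receptors, CD23 and TACI had lower levels in EV and the BAFF receptor higher ones, all without a call. Fcer2a was at 563 and 503 CPM in Control against 373 and 460 CPM in EV (log2 fold change -0.36, SE 0.13, adjusted p 0.20). EV 1 was the lowest library, as it was for Cd40 and Icosl. Tnfrsf13b was at 197 and 187 CPM in Control against 141 and 155 CPM in EV, a log2 fold change of -0.38 (SE 0.09) with an adjusted p of 0.083. DESeq2, the fit without a filter on low counts and another cell filter each called this gene, at -0.36, -0.33 and -0.43. Tnfrsf13c was at 257 and 261 CPM in Control against 270 and 299 CPM in EV (log2 fold change 0.14, SE 0.10, adjusted p 0.49). Of the 8 genes, 7, that is all but Cd80, had groups that did not overlap in B cells, 3 higher and 4 lower in EV, beside 51% of all genes tested, and the median log2 fold change of the 8 was -0.17. The shares of B cells with a UMI did not overlap for 4 of the 8, beside 67.7% of all genes tested, and after thinning for 7 of the 8, beside 42.8%.

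Ighd-positive B cells, the bulk of the class, gave nearly the same values. Cd83 was at 308 and 283 CPM in Control against 632 and 739 CPM in EV, a log2 fold change of 1.21 (SE 0.12, adjusted p 0.0030, edgeR). It was again the only gene of the set called, beside 2.16% of all genes. At an unadjusted p under 0.05 in edgeR, 5 of the 8 genes passed, beside 2386 of 12897 genes. Cd86 had a log2 fold change of 0.65 (SE 0.17, adjusted p 0.094). It was called in 6 of 14 settings, thinning among them (0.61, adjusted p 0.045, edgeR, beside 236 of 10215 genes). In the 102 to 162 Ighd-negative B cells per library, Cd83 was at 291 and 159 CPM in Control against 464 and 361 CPM in EV. The groups did not overlap, and the log2 fold change of 0.88 (SE 0.30) had an edgeR adjusted p of 0.41. Over 14 settings this log2 fold change ranged from 0.31 to 1.37. None of the 7 genes tested was called there by edgeR, beside 0.635% of all genes. Cd83 and Fcer2a passed an unadjusted p of 0.05 in edgeR, beside 557 of 7246 genes, and DESeq2 called none of the set. The difference of the Cd83 effect between the subsets was -0.24 (SE 0.23, adjusted p 0.96, edgeR). It ranged from -0.72 to 0.017 over 6 settings, none called. In the main fit none of the 8 genes was called in that comparison, beside 0.44% of all genes. None was under an unadjusted p of 0.05 either, beside 799 of 12489 genes. The summed migratory dendritic cell markers in Ighd-negative cells were 443 and 309 CPM in Control against 928 and 1386 CPM in EV. The NK cell markers summed to 0 and 1.90 CPM in Control against 127 and 140 CPM in EV, the neutrophil markers to 0 and 1.90 against 3.19 and 193 CPM, and the B cell markers to 9384 and 8343 against 7292 and 7746 CPM. The part of these sums in the values of Ighd-negative cells was not tested.

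Apart from the treatment, the genes differed in level between the Ighd subsets within libraries. Fcer2a was lower in Ighd-negative than in Ighd-positive B cells, at 211 and 317 against 515 and 571 CPM in the Controls and 174 and 180 against 379 and 471 CPM in EV, with a log2 difference of -1.14 (SE 0.11, adjusted p 1.3e-06). Icosl was lower as well (-0.83, SE 0.14, adjusted p 2.8e-04), and so was Cd83 (-0.58, SE 0.13, adjusted p 0.0025). Cd80 was higher, at 2.51 to 19.3 CPM on 1 to 17 UMIs per library against 1.19 to 1.73 CPM, with a log2 difference of 2.86 (SE 0.54, adjusted p 7.6e-04), and it did not pass the filter on low counts after thinning. These 4 of 8 genes were called beside 30.3% of all genes, so a call was common in this comparison. Cd86, Cd40, Tnfrsf13b and Tnfrsf13c differed by -0.11 to -0.22 and were not called. The Ighd gates also differed in other RNA. B cell markers summed to 7292 to 9384 CPM in Ighd-negative and 12500 to 14098 CPM in Ighd-positive cells. Macrophage markers summed to 611 to 1460 against 156 to 273 CPM and resident dendritic cell markers to 70.2 to 140 against 10.5 to 23.3 CPM. The migratory sums overlapped, at 309 to 1386 against 389 to 490 CPM. The part of these sums in the level differences was not tested. The gate itself rests on detection of Ighd. Ighd-negative cells made up 3.54% and 4.32% of the Control and 3.47% and 2.86% of the EV B cells at full depth, and 33.4% and 36.2% against 41.1% and 37.7% at 1000 UMIs per cell, so the order of the groups turned with depth.

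In dendritic cells the B7 ligands had the largest log2 fold changes of the set. Cd86 was at 82.5 and 76.2 CPM in Control against 266 and 134 CPM in EV, on 34 to 146 UMIs per library. Its log2 fold change was 1.33 (SE 0.31, adjusted p 0.079), and its share of cells was 16.7% and 17.9% in Control and 33.0% and 33.3% in EV. After thinning the shares overlapped, at 10.8% and 4.76% against 13.8% and 6.33%. Cd80 was at 38.8 and 45.1 CPM in Control against 128 and 45.6 CPM in EV, on 16 to 70 UMIs per library. EV 2 was close to Control 2, and the log2 fold change was 1.00 (SE 0.40, adjusted p 0.50, edgeR). The share of cells with a Cd80 UMI was higher in both EV libraries, at 11.1% and 9.76% against 14.9% and 17.2%, and after thinning at 3.08% and 2.86% against 8.75% and 5.06%. These shares rest on 72 to 123 cells per library, and on 65 to 105 after thinning, so few cells held Cd80. The exact permutation p was 0.33 for both, the lowest that 2 against 2 libraries can give. The macrophage marker sum in this class was also highest in EV 1, at 2739 CPM against 907 to 1342 in the other libraries, and its part in these values was not tested. Cd83 was at 238 and 314 CPM in Control against 470 and 432 CPM in EV (0.70, SE 0.26, adjusted p 0.43), but its log2 fold change was 0.13 after thinning, 0.25 with the other cell filter and 0.33 under the stricter gates, none called. Cd40 was at 197 and 198 against 261 and 290 CPM (0.48, SE 0.25, adjusted p 0.74). Icosl was lower in both EV libraries, at 122 and 137 CPM against 170 and 162 CPM (-0.35, SE 0.26, adjusted p 0.89).

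None of the 8 genes was called in dendritic cells by edgeR, beside 0.148% of all genes. At an unadjusted p under 0.05 in edgeR, 4 of them passed (Cd83, Cd86, Cd80 and Fcer2a), beside 568 of 7421 genes, and DESeq2 called none of the 8. Of the 8 genes, 6 had groups that did not overlap, beside 36.6% of all genes. Fcer2a and Tnfrsf13c came mainly from dendritic cells that also held Cd79a. The 55 to 106 cells per library without Cd79a gave 5, 2, 0 and 0 Fcer2a UMIs and 1, 1, 0 and 2 Tnfrsf13c UMIs in Control 1, Control 2, EV 1 and EV 2, whereas the cells with Cd79a gave 20 to 54 and 16 to 38. Cd86 without Cd79a gave 23 and 29 UMIs in the Controls and 113 and 75 in EV, with no overlap of the groups. Cd83 differed from this, with 83, 167, 155 and 146 UMIs in cells without Cd79a, found in 40.0%, 39.6%, 35.6% and 47.8% of them, and 15, 35, 103 and 138 UMIs in cells with Cd79a. In the main fit, none of the 8 genes was called for a difference of the EV effect between dendritic and B cells, beside 0.0907% of all genes. At an unadjusted p under 0.05 in edgeR, 3 passed (Cd40, Cd86 and Cd83), beside 895 of 13231 genes. The difference was 0.74 for Cd86 (SE 0.26, adjusted p 0.39) and -0.44 for Cd83 (SE 0.21, adjusted p 0.73). The 70 cells in both gates entered both sides of this test. Under the stricter gates, which remove them, the Cd86 difference was called (adjusted p 0.028, edgeR), beside 31 of 12997 genes. Over 6 settings it ranged from 0.034 to 1.29.

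Macrophages held few UMIs of the set, from 0 to 80 per gene and library. Cd83 was at 172 and 89.1 CPM in Control against 333 and 221 CPM in EV (1.22, SE 0.42, adjusted p 0.44). The cells with Cd79a gave 9, 12, 67 and 43 of these Cd83 UMIs and those without it 1, 1, 13 and 0. In macrophages without Cd79a, Cd86 gave the most UMIs of the set in each library, at 11 to 25. Tnfrsf13b gave 1, 9, 1 and 9 there and Cd80 gave 2, 0, 2 and 3, in the order Control 1, Control 2, EV 1 and EV 2. Over all macrophages the groups overlapped for Cd86 (-0.09, SE 0.45, adjusted p 0.98). Cd80 was found in none of the 80 macrophages of Control 2, which allows a share of cells with a Cd80 UMI of up to 3.75% for counting error alone, at a median depth of 1114 UMIs, and sets no limit on cells that express the gene. Fcer2a was at 34.3 and 130 CPM in Control against 158 and 293 CPM in EV, on 2 to 57 UMIs. No gene of the set was called in macrophages by edgeR, as 0 of all 3497 genes (0%) were, with 2 members (Cd83 and Fcer2a) and 316 genes at an unadjusted p under 0.05, and DESeq2 called 1 gene, not of the set. The difference between the Fcer2a effect in macrophages and that in B cells was called (1.66, SE 0.39, adjusted p 0.020, edgeR), the only 1 of the 8 genes, beside 0.198% of all genes. The 51 cells in both gates, which all held Cd79a, entered both sides of this test. Macrophages without Cd79a gave 0, 2, 0 and 1 Fcer2a UMIs, and this difference was -1.05 under the stricter gates, which remove Cd79a-positive macrophages, and 0.38 after thinning, neither called. The B cell marker sum in the macrophage gate was 3141 and 2927 CPM in Control and 5483 and 6061 in EV, while the macrophage marker sum was 38464 and 32793 CPM in Control and 21901 and 15803 in EV.

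**Figure D3:**
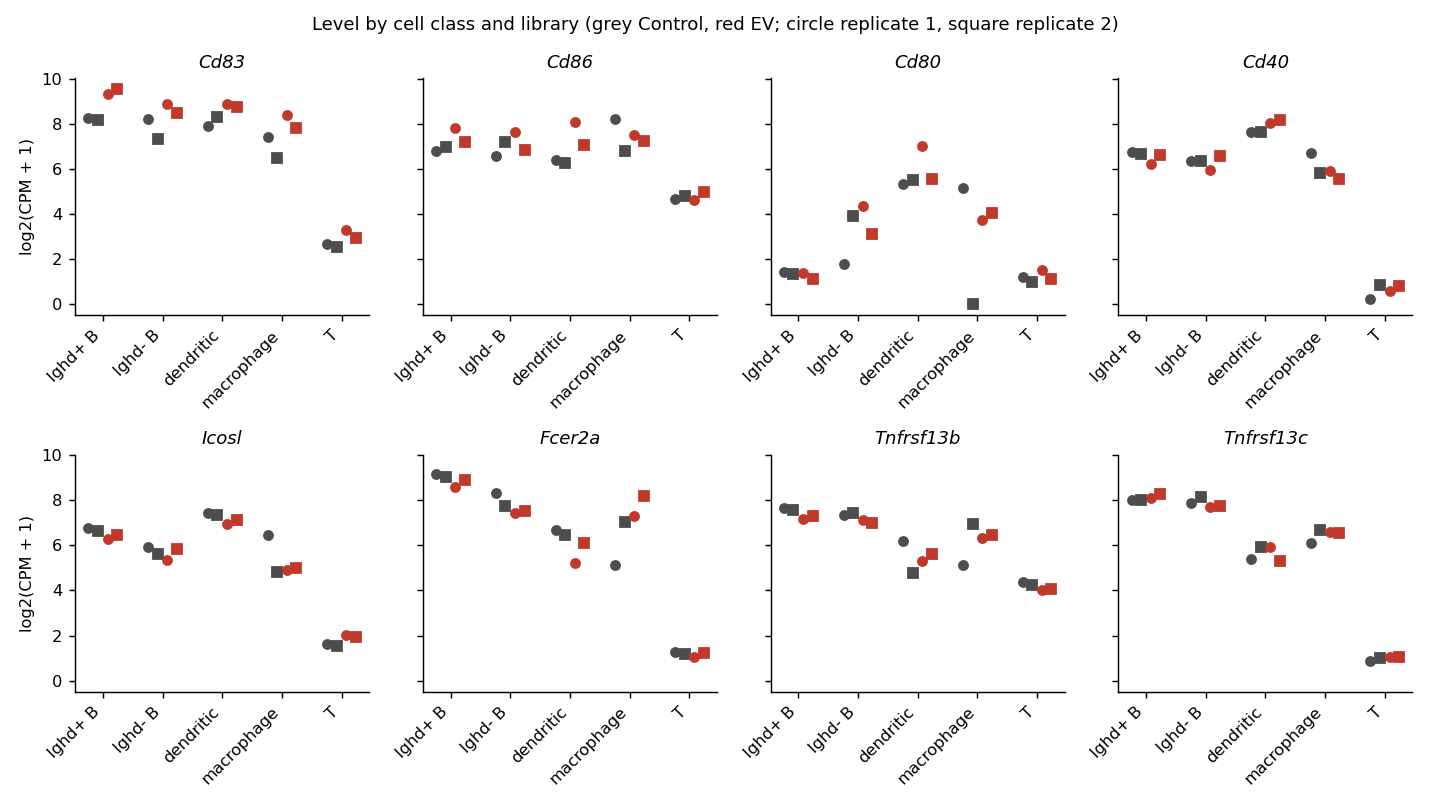
Level of each gene, as log2(CPM + 1), in 5 cell classes (x axis), with 1 point per library. Fcer2a and Tnfrsf13c fall from B cells to T cells by the largest steps, Cd80 is highest in dendritic cells, and in Ighd-positive B cells the EV points of Cd83 lie above the Control points.

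T cells gave the background. Per library, the T cell level was 0.249% to 0.291% of the B cell level for Fcer2a, 0.334% to 0.403% for Tnfrsf13c, 0.162% to 0.839% for Cd40, 0.932% to 1.76% for Cd83 and 1.97% to 3.98% for Icosl. The B cell genes Cd79b, Ighd and Ms4a1, measured the same way, gave 0.846% to 0.923%, 0.542% to 0.710% and 0.107% to 0.253%. The first 3 genes lay below Cd79b. Fcer2a and Tnfrsf13c lay above Ms4a1 in each library, and Cd40 in all but Control 1. Their place against a gene T cells should lack thus depends on the gene taken. Tnfrsf13b at 9.46% to 10.7%, Cd86 at 10.7% to 22.5% and Cd80 at 50.8% to 87.9% stood further above Cd79b. In T cells Cd83 was at 5.38 and 4.89 CPM in Control against 8.74 and 6.75 CPM in EV (0.59, SE 0.17, adjusted p 0.14). No gene of the set was called in T cells by edgeR, beside 0.536% of all genes, and DESeq2 called none of the 8. In edgeR, 3 of them (Cd83, Icosl and Tnfrsf13b) passed an unadjusted p of 0.05, beside 2707 of 13987 genes. None of the 8 was called for a difference of the EV effect between T and B cells, beside 0.405% of all genes. At an unadjusted p under 0.05 in edgeR, 2 passed (Icosl and Cd83), beside 1520 of 15048 genes. For Cd83 that difference was -0.64 (SE 0.17, adjusted p 0.22, edgeR).

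**Figure D4:**
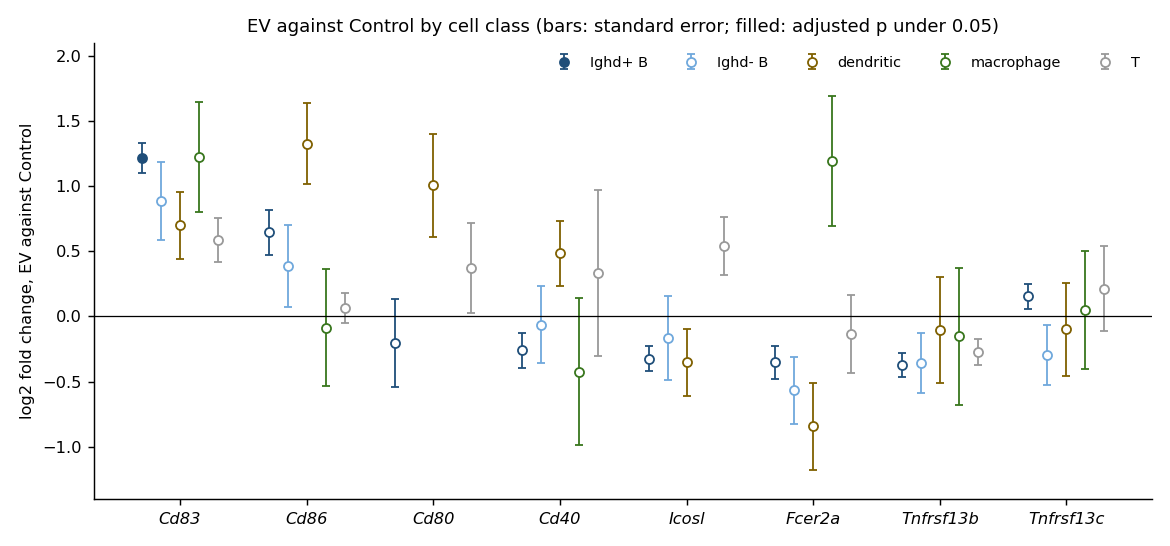
Log2 fold change of EV against Control (y axis) with its standard error, for each gene and cell class, from edgeR. The filled point, Cd83 in Ighd-positive B cells at 1.21, passed an adjusted p of 0.05. Open points did not, and genes below the filter on low counts have no point.

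Most UMIs of the set lay in B cells. Of all Cd83 UMIs, 81.7% and 81.0% in Control and 90.4% and 89.2% in EV came from B cells, while B cells were also a larger share of the EV cells. For Fcer2a and Tnfrsf13c this share was 86.7% to 92.4%, for Cd40 and Icosl 77.8% to 86.0%, and for Cd86 and Tnfrsf13b 55.1% to 82.8%. Cd80 was the exception, with 21.4% to 25.9% in B cells, 13.3% to 25.2% in dendritic cells outside the B gate and 14.3% to 43.3% in T cells. Cells of no class held 15.6% and 14.6% of the Cd80 UMIs in Control and 40.8% and 26.7% in EV, the largest share in both EV libraries. Within thinned B cells, Cd86 was found in 9.50%, 13.8%, 18.0% and 12.5% of the cells with Cd83 and in 9.46%, 9.99%, 15.8% and 11.5% of those without, in the order Control 1, Control 2, EV 1 and EV 2. The share was nearly equal in Control 1 and higher in the cells with Cd83 in Control 2, EV 1 and EV 2. Fcer2a was found in 32.4% to 43.6% of the thinned B cells with Cd83 and in 27.2% to 41.0% of those without. Fcer2a and Cd40 had the higher share in the cells with Cd83 in each library. Tnfrsf13b went the other way in each library, at 15.1%, 13.3%, 11.9% and 13.3% with Cd83 against 17.6%, 16.4%, 14.0% and 13.8% without. Cd80, on few cells, was also lower in each, and Icosl and Tnfrsf13c had no common direction.

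The genes whose pattern was most like each member's were taken by Pearson r of log2(CPM + 1) over 20 sums, which are 5 classes in each of 4 libraries, among 10237 genes. The points share libraries and fall into classes, so r mainly describes in which class a gene is found. For Cd83 they were Gm15987 (r = 0.98), Ptprj and Snx8, and for Cd86 they were Pkib, Plekho1 and Themis2 (0.92 each). For Cd80 they were Tmtc3 (0.95), Gsap and Cpne2. Cd40 and Icosl were each among the 3 genes nearest to the other (0.98), together with Trim7 and Atp6v0a1. For Fcer2a they were Gm30211 (0.99), Gm43388 and Iglc2, for Tnfrsf13b Prr5 (0.96), H2-Ob and Parp1, and for Tnfrsf13c Ms4a1, Lat2 and Cd79b (0.99 each).

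The genes around the set in B cells were described by 7 further lists. Over all genes, 2365 of 13127 were at an unadjusted p under 0.05 in the main edgeR fit, so such a p was common and is the background for the list counts below. Of 22 genes of CD40 and NF-kB signalling, edgeR called none (median log2 fold change 0.07), with 5 at an unadjusted p under 0.05, and DESeq2 called 1, Icam1. Of 13 genes of MHC class II and the Cd83-March1 axis it called none (0.06), with 3 at an unadjusted p under 0.05, and DESeq2 called 1, Cd74, which encodes the invariant chain. None of 6 tested T cell partners (1 at an unadjusted p under 0.05), of 9 other B7 and TNF family ligands (2) or of 12 follicular B cell genes (0) was called by either tool. Early activation had edgeR calls, all downward. Of 19 genes tested, 4 were called lower and none higher, beside 1.58% of all genes tested. At an unadjusted p under 0.05, 10 passed, and the list median was 0.19. DESeq2 called 8 of the list, beside 418 of 21418 genes. These were the same 4 lower and Cd69, Gpr183, Batf and Il4i1 higher, so the tools differed in which genes passed, and none was called in opposite directions. Egr3, a transcription factor induced by the B cell receptor, was at 61.8 and 49.3 CPM in Control against 28.4 and 29.3 CPM in EV (-0.94, SE 0.12, adjusted p 0.011). Tnf, the cytokine gene, was at 14.7 and 13.9 against 7.65 and 7.34 CPM (-0.93), Egr1 fell by 0.76 on the log2 scale, and Irf4, a regulator of B cell activation and plasma cell fate, fell by 0.59 (adjusted p 0.048). Tnf was not called after thinning (adjusted p 0.32), Egr1 neither after thinning (0.14) nor without Control 1 (0.17), and Irf4 not without Control 1 (0.36). Irf4 was also the only edgeR call among 11 tested genes of the germinal centre and plasma cell list, of which 3 passed an unadjusted p of 0.05, and DESeq2 called it lower and Bcl6 and Xbp1 higher. In Ighd-positive B cells, Il4i1 (0.58, adjusted p 0.048), Bcl6 (0.55, adjusted p 0.043) and Xbp1 (0.44, adjusted p 0.048) rose in addition. Bcl6 is the transcription factor of the germinal centre. Bcl6 and Xbp1 were not called with library totals, without Control 1, without Control 2 or after thinning, and Il4i1 was not called with library totals, without Control 2 or with the other cell filter.

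On the T cell side, 12 of the 13 partner genes were tested, and edgeR called 1, higher, beside 0.536% of all genes tested. At an unadjusted p under 0.05 in edgeR, 6 passed, beside 2707 of 13987 genes, and DESeq2 called 1, higher, beside 308 of 22120 genes. Il4, the helper cytokine, gave 8 and 28 UMIs in Control and 85 and 140 in EV over 2418 to 4352 T cells, or 0.274 and 0.796 against 3.85 and 4.97 CPM. Both EV libraries lay above both Controls, with a log2 fold change of 3.0 (SE 0.40, adjusted p 0.025). Without Control 1 it was 2.46 and not called (adjusted p 0.053), without Control 2 it was 3.99, and after thinning 4.77, both called. Cd40lg, which encodes the ligand of CD40, was at 81.3 and 78.9 CPM in Control against 62.2 and 80.1 CPM in EV (-0.17, SE 0.11, adjusted p 0.44). Icos was at 83.4 and 91.2 against 108 and 91.0 CPM and Cd28 at 192 and 208 against 209 and 219 CPM, neither called. In the other lists Icam1 (0.71, adjusted p 0.032) and Tnfsf8, which encodes the CD30 ligand (0.55, adjusted p 0.029), rose in T cells, and neither was called without Control 1 (adjusted p 0.26 and 0.41). Of 20 heat shock and dissociation genes tested in T cells, edgeR called 4 higher and DESeq2 7 higher, and none of these was called lower by either tool. DESeq2 also called 2 genes of the follicular list and 1 of the germinal centre and plasma cell list lower in T cells. It called 1 of the MHC class II list higher.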

How the data were processed

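Droplet single-cell RNA libraries (10x 3′ kit, V3.1) of mouse draining lymph node cells were measured in 2 Control and 2 EV samples. The deposited files are gene by barcode matrices of whole UMI counts, made by the authors with Cell Ranger 7.1.0 on mm10 (the version also stands in the submitters' processing notes) and not normalized, for the barcodes that Cell Ranger took as cells. Which annotation release was used, and whether intronic reads counted, is not given in the sources used here. The authors' counting unit is the UMI, so PCR copies are counted once.

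Cells with 200 to 5000 genes, at most 20000 UMIs and under 10% mitochondrial UMIs were kept, and doublets were left in. The UMIs of a class were added up in each library and tested in edgeR 4.0.16 (R 4.3.3; quasi-likelihood, two-sided, TMM, filterByExpr, Benjamini-Hochberg over all genes tested, called at an adjusted p under 0.05). Whether an effect differed between classes, and levels between Ighd subsets, were tested with library as a block. Alternatives were DESeq2 1.42.0, no filterByExpr, library totals in place of TMM, a replicate block, each library left out, cells thinned to 1000 UMIs, no upper cell limits with a 5% mitochondrial limit, a 60% ribosomal limit as the authors used, stricter gates, and removal of cells over the Scrublet threshold (scanpy 1.11.5, expected rate 6%). Python 3.11.15, numpy 2.4.6, scipy 1.17.1 and pandas 2.3.3 were used. On simulated counts, 100% of 2-fold changes were recovered for the B cell comparison (13091 genes, 6 false calls) and 23.8% for the dendritic cell comparison (7327 genes, 3 false calls). All genes were drawn with the same dispersion, and only genes above a minimum level were changed. Recovery of genes with low counts or a wider spread between libraries, such as Cd80 in B cells, was therefore not tested. Intervals and floors cover counting error only. With 2 libraries a group, p-values rest on few degrees of freedom.

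The 8 genes, the gene lists and the tests were chosen with earlier results of these data known. Genes of the lists were named as the called genes, at most 4 a list, with the largest change in B cells, and genes of like pattern as the 3 with the largest r. Those named from other classes, from DESeq2 or without a call were chosen after their values were seen. Sums in the 2 groups that share a replicate number did not deviate together (correlations of -0.028 to 0.13 over 6 classes), and with 2 numbers the samples were not treated as paired. Positions are those of GENCODE M21 on GRCm38, matched by Ensembl identifier.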

Additional observations from a re-analysis of the deposited data

Results flagged for a closer look

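One gene of the set differed between cell classes in its EV effect by the test of that difference. For Fcer2a, the effect in macrophages exceeded that in B cells by 1.66 on the log2 scale (SE 0.39, adjusted p 0.020 over all genes, edgeR). It was higher in 2 of 2 EV than Control libraries in the macrophage gate and lower in 2 of 2 in B cells. Of the 2, 19, 38 and 57 Fcer2a UMIs in macrophages of Control 1, Control 2, EV 1 and EV 2, 2, 17, 38 and 56 lay in cells that also held Cd79a, and these were 5, 10, 20 and 16 of the cells. These cells are the 51 in both the B cell and macrophage gates, so they entered both sides of the test. The difference was 0.38 (adjusted p 1) after thinning and -1.05 (adjusted p 1) under the stricter gates.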

How the results depend on the processing

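Depth limited the smaller classes, with 376 dendritic cells and 280 macrophages in all. Of 819 recomputed values of the genes named, 725 kept direction and side of the threshold. These include the 60% ribosomal limit, whose fits tested and called as many genes as the main fit in every class but T cells. Outside T cells its values were thus no separate check. Cd83 was called in B and Ighd-positive B cells under every alternative. The cause of each change that follows was not tested, beyond what an alternative's construction shows, since fits without a library assume that the lone sample varies like the other group.

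In B cells the number of genes of the set called was 1 in the main fit, beside 207 of all 13127 genes. It was 2 with DESeq2 (beside 418 of 21418) and with the other cell filter (559 of 13203), with Tnfrsf13b added. A replicate block gave 2 (Cd86 added, 0.60, adjusted p 0.022, edgeR), beside 750 of 13127. Without filterByExpr it was 3, beside 1101 of 21418. In Ighd-positive B cells it was 2 with DESeq2 (beside 423 of 21199) and a replicate block (714 of 12897). It was also 2 there with thinning (236 of 10215) and the other cell filter (387 of 12934), and 3 without filterByExpr (1245 of 21199). Without filterByExpr it was 1 in Ighd-negative B cells (Cd83, beside 234 of 15378), dendritic cells (Cd86, 95 of 15930) and T cells (Cd83, 1239 of 22120). Fits with a library left out hold 1 sample in a group, and their counts of genes of the set are not given. The gene the block added in Ighd-positive B cells was again Cd86 (0.62, adjusted p 0.029), and it changed no other call of the 8 genes. Over all genes it called 750 in B cells against 207. The stricter gates called Cd86 in dendritic against B cells (1, beside 31 of 12997 genes) and Cd83 in T against B cells (1, beside 85 of 14880). They called 0 of the set in macrophages against B cells, as did thinning (0). Over all genes the calls ranged from 152 to 2352 in B cells and from 6 to 3026 in T cells, both extremes with a library left out, from 171 to 2520 in Ighd-positive and 0 to 234 in Ighd-negative B cells, from 0 to 167 in dendritic cells and from 0 to 86 in macrophages. The interactions ranged from 2 to 55 for the Ighd subsets, from 1 to 31 for dendritic cells, from 0 to 52 for macrophages and from 31 to 85 for T cells, and the level comparison from 1231 to 4519.

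Of the 8 genes, 4 had shares of B cells that did not overlap (67.7% of all genes tested), 7 after thinning (42.8%) and 4 to 8 with a library left out (80.6% to 88.6%). The difference in the share of Ighd-negative cells was -0.77 points, 4.61 after thinning and -0.17 with the other cell filter, and from -1.16 to -0.38 with a library left out.

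Directions of values without a call turned as follows. Cd80 in B cells was 0.049 with the other cell filter and -0.44 to 0.19 with a library left out. In Ighd-negative B cells, Cd86 ranged from -0.079 to 0.75, Cd40 from -0.40 to 0.23 and Icosl from -0.43 to 0.073. In dendritic cells, Tnfrsf13b was 0.76 with stricter gates (-0.73 to 0.72 with a library left out) and Tnfrsf13c 0.095 with the other cell filter (-0.44 to 0.24). In macrophages, Cd86 was 0.066 without filterByExpr, 0.047 with library totals and 0.0092 with stricter gates (-0.80 to 0.61), Tnfrsf13b was 0.059 with DESeq2 (-0.57 to 1.26), and Tnfrsf13c ranged from -0.12 to 0.45. In T cells, Cd86 was -0.19 after thinning (-0.12 to 0.23) and Cd40 ranged from -0.35 to 1.89. The difference of the Cd83 effect was 0.017 between the Ighd subsets and -0.15 between macrophages and B cells after thinning, and that of Fcer2a in macrophages was -1.05 with stricter gates. In the level comparison Tnfrsf13b was 0.062 and Tnfrsf13c 0.060 with stricter gates.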

Other observations

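In Ighd-negative B cells the early activation list had 1 call among 12 genes tested, beside 0.635% of all genes. Ccl22, a chemokine gene, was at 5.03 and 0 CPM in Control against 30.6 and 75.4 CPM in EV (log2 fold change 4.44, SE 0.85, adjusted p 0.048, edgeR), and it was called in 8 of 12 settings. DESeq2 called none of the list. The stricter gates called 0 of 6327 genes in this class, so Ccl22 was not called there. These gates drop B cells with an Fscn1, C1qa or C1qb UMI or with fewer than 2 Cd79a UMIs. Ccl22 was chosen with its values known. The migratory dendritic cell markers, of which Ccl22 is one, summed to 443 and 309 CPM without TMM scaling in Control and 928 and 1386 CPM in EV in the same cells, and their part was not tested.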
